A study of Homo sapiens with 6 samples.

Results

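The genes described here encode the mitochondrial ribosomal proteins, taken as every gene symbol made of MRPL or MRPS, a number and at most 1 further letter. All 77 such symbols reached 1 TPM (transcript level scaled to gene length and to a fixed library total) in at least 2 of the 6 libraries, so all 77 were kept, among 14195 genes that reached that level and 26485 symbols in all. The libraries were made in pairs from PC9-AMG, PC9-BrM4 and PC9, 3 human lung cancer cell lines kept in ordinary culture. PC9 comes from a lung adenocarcinoma and carries an activating EGFR mutation, and the other two are named after it. PC9-BrM4 has been described elsewhere as derived from PC9 by brain metastasis, which the labels leave unsaid. The meaning of AMG is not stated in the labels. All 3 lines were labelled alike as lung cancer cells with no further treatment, and the labels do not say whether the 2 libraries of a line were grown apart. The p-values therefore reflect library-to-library spread that may be technical.

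Mitochondria hold their own ribosomes, which translate the few mRNAs of the mitochondrial genome into core subunits of the respiratory chain and of ATP synthase. Every protein of this ribosome is encoded in the nucleus, made in the cytosol and imported. Some belong to families shared with bacterial ribosomes, and others were added during the evolution of mitochondria. The large subunit forms peptide bonds, and the small subunit binds the mRNA and decodes it.

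Of the 77 genes, 50 encode proteins of the large subunit and 26 proteins of the small subunit. MRPS30 and MRPS18A are counted with the large subunit, where their proteins sit despite the names. MRPS36 is counted with neither, because its protein is known as a component of the 2-oxoglutarate dehydrogenase complex. By family, 47 belong to bacterial families and 30 are specific to mitochondria. The files list MRPL58 under its older symbol ICT1, so it falls outside the symbols chosen and appears below among the other subunits.

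The libraries held between 2.66 and 4.39 gigabases of aligned sequence, as estimated from the deposited coverage, and 13455 to 13764 genes reached 1 TPM in each. The median absolute log2 difference between the 2 libraries of a line over the 77 genes was 0.044 in PC9-AMG, 0.0573 in PC9-BrM4 and 0.0455 in PC9. Over all tested genes it was larger, at 0.081 in PC9-AMG, 0.0868 in PC9-BrM4 and 0.0622 in PC9. The shares of all tested genes given below were not matched for level or for this spread. The epithelial markers EPCAM, KRT8, KRT18 and CDH1 were abundant in all 3 lines, at a summed 9326 TPM in PC9-AMG, 6266 in PC9-BrM4 and 7458 in PC9. The lung lineage markers NKX2-1, SFTPB, SFTPC and NAPSA summed to less than 1 TPM in each line (0.14 in PC9-AMG, 0.34 in PC9-BrM4 and 0.74 in PC9), with SFTPC at 0 in every library. Of 4 fibroblast markers, COL1A2 and DCN were at 0 in every library and PDGFRB was under 1 TPM throughout. COL1A1 gave 14.4 and 14.8 TPM in PC9-AMG, 3.68 and 4.43 TPM in PC9-BrM4, and 4.77 and 5.02 TPM in PC9 (log2 1.40 for PC9-AMG over PC9, limma adjusted p = 3.84e-05). The summed fibroblast markers were 14.8 TPM in PC9-AMG, 4.05 TPM in PC9-BrM4 and 4.91 TPM in PC9, and their part in the results was not tested. TPM values are relative within a library, and fewer cells of a type cannot be told apart from less RNA per cell.

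Mitochondrial ribosomal protein transcripts were abundant. Their mean level over the 6 libraries had a median of 102.6 TPM, against 20.9 TPM over all tested genes, and 75 of the 77 lay above that general median. The lowest value of any of them in any library was 15.4 TPM. Levels differed 32.2-fold between the highest and the lowest gene, although the assembled ribosome holds most of these proteins in equal number. The 10 highest genes supplied 32.9% of the summed TPM. There were 39 genes at 100 TPM or more, 25 between 50 and 100 TPM, and 13 below 50 TPM.

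MRPL51, a mitochondria-specific protein of the large subunit, led the order, with 575 and 611 TPM in PC9-AMG, 595 and 575 TPM in PC9-BrM4, and 649 and 667 TPM in PC9. MRPS15, a small-subunit protein of a bacterial family, came next with 646 and 656 TPM in PC9-AMG, 463 and 454 TPM in PC9-BrM4, and 364 and 379 TPM in PC9. In PC9-AMG both libraries of MRPS15 exceeded both of MRPL51, and in PC9-BrM4 and PC9 the order was the opposite. MRPL37, a mitochondria-specific large-subunit protein, came after them with 364 and 372 TPM in PC9-AMG, 352.1 and 352 TPM in PC9-BrM4, and 287 and 289.7 TPM in PC9.

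At the low end, MRPL19 gave 23.9 and 21.8 TPM in PC9-AMG, 33.6 and 33.9 TPM in PC9-BrM4, and 27.6 and 28.5 TPM in PC9. MRPS14 gave 17.8 and 18.7 TPM in PC9-AMG, 19.8 and 19.03 TPM in PC9-BrM4, and 20.4 and 21.2 TPM in PC9. MRPL57 gave 22.1 and 21.7 TPM in PC9-AMG, 18.2 and 18.8 TPM in PC9-BrM4, and 17.7 and 15.4 TPM in PC9. MRPL57 lay above MRPS14 in both PC9-AMG libraries and below it in those of PC9-BrM4 and PC9. MRPL51, MRPS15, MRPL37 and MRPL57 each have a pseudogene named after them in GENCODE 29, and the sources used here do not say how the authors assigned reads shared with such copies.

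The 77 genes are spread over 21 chromosomes, and their promoters share short sequence features. RefSeq promoter windows (GRCh38.p14, from 250 bases before to 50 bases after the annotated start) were matched by symbol for 68 of the 77. The core CCGGAAG, recognised by ETS factors such as GABPA, was found on either strand in 28 of the 68 windows (41.2%), against 10.7% of all 27305 promoters in the table and 19.2% of the 10000 promoters of other tested genes. The core AAGATGGC, recognised by YY1, was found in 20 windows (29.4%), against 3.03% of all promoters and 5.31% of those of other tested genes. At least 1 of these cores occurred in 40 windows (58.8%, against 13.1% of all and 23.2% of other tested genes), and both occurred in 8 (11.8%, against 0.597% and 1.27%). The palindromic NRF1 core was found in 1 window (1.47%, against 1.36% and 2.25%). CCGGAAG ends with the AAG that opens AAGATGGC, so these cores can overlap, and a match is a string of letters, not a measured binding site.

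The 5 genes shown next were chosen from those described further on and do not represent the genes that differed most. MRPS15, MRPL41, MRPL55 and MRPL1 passed a 1.5-fold difference in a comparison, are not shown, and held neither core in their windows. Each sequence runs from 100 bases before to 30 bases after the RefSeq start, on the strand of the gene, with ETS and YY1 cores in capitals.
MRPS12, chr19:38930844-38930973, plus strand: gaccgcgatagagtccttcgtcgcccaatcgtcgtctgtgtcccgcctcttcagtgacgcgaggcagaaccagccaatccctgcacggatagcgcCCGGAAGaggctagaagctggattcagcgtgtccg
MRPL38, chr17:75904855-75904984, minus strand: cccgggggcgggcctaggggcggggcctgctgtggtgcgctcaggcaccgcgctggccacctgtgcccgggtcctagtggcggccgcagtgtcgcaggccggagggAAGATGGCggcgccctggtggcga
MRPS7, chr17:75261779-75261908, plus strand: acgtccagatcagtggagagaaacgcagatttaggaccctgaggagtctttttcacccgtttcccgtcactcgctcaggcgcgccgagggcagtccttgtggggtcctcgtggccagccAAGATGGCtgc
MRPS30, chr5:44808847-44808976, plus strand: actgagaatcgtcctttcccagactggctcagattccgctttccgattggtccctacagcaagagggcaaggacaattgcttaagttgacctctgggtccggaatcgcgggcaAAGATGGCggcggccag
MRPL12, chr17:81703267-81703396, plus strand: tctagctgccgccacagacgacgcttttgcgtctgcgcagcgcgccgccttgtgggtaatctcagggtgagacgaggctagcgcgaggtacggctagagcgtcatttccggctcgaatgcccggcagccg
MRPS12 carries the ETS core across its RefSeq start, with the first base of the match at -5. MRPL38, MRPS7 and MRPS30 carry the YY1 core just after their RefSeq starts. The window of MRPL12 holds neither core. Only 1 RefSeq start was used per symbol. The deposited gene models of MRPS12, MRPS7 and MRPL38 begin upstream of the stretches shown, at 38930708, 75261668 and 75905100. By those models the ETS core of MRPS12 lies inside the gene. A YY1 core of MRPS12 and an ETS core of MRPL38 lie in their windows outside the stretches shown.

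The cores sat close to the start. The 21 YY1 matches had a median position 9 bases after the start, 16 of them began within 50 bases of it, and 17 read in the direction of the gene. The letters AAGATGGC contain ATG, and 12 of the 21 matches covered an annotated start codon (GENCODE 29). The 37 ETS matches had a median position 22 bases before the start, recorded as -22, with 26 within 50 bases, and lay on the strand of the gene in 17 cases and on the other strand in 20.

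**Figure D1:**
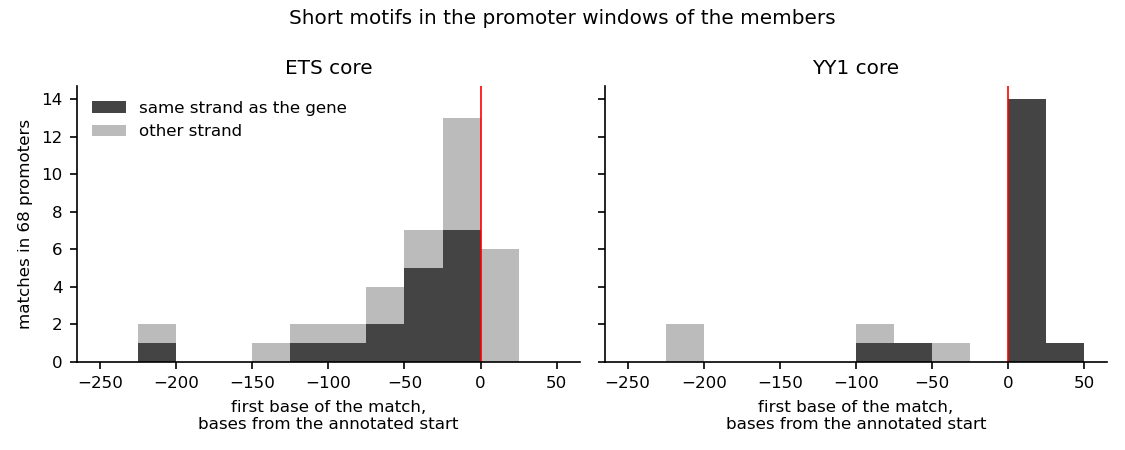
Number of matches to the ETS core (left) and the YY1 core (right) in 68 promoter windows of mitochondrial ribosomal protein genes, by distance in bases from the annotated start (red line), in bins of 25 bases and shaded by strand. The 21 YY1 matches gather just after the start on the strand of the gene, and the 37 ETS matches gather just before it on both strands.

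Genes with a core were called in both directions. In PC9-BrM4 relative to PC9, 10 of the 28 genes with an ETS core were called higher and 5 lower, with a median log2 fold change of 0.05, and of the 40 without it 24 were higher and 1 lower, with a median of 0.22. In PC9-AMG relative to PC9, 7 of the 28 were higher and 11 lower, against 16 and 9 of the 40. For the YY1 core the split was 12 higher and 2 lower of 20 in PC9-BrM4 relative to PC9, against 22 and 4 of the 48 without it. Over all tested genes, 23.4% were called higher and 23.1% lower in PC9-BrM4 relative to PC9. In PC9-AMG relative to PC9 these shares were 27.8% and 27.7%. The counts by core are descriptions with no test of the difference.

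PC9-BrM4 was first compared with PC9, which asks how the genes differ between the metastatic subline and the line whose name it carries. The mitochondrial ribosomal protein transcripts that differed were mostly higher in PC9-BrM4, by modest amounts. On the limma test over all 14195 genes, with Benjamini-Hochberg adjustment and a threshold of 0.05, 36 of the 77 were called higher (46.8%) and 6 lower (7.79%), and 35 did not pass. Of all tested genes, 23.4% were called higher, 23.1% lower and 46.6% in either direction. The median log2 fold change of the 77 was 0.15, against -0.0016 over all tested genes. For 67 of the 77 (87%) no library of one line fell within the range of the other, against 75.2% of all tested genes. The changes were small: 1 of the 77 (1.3%) reached a 1.5-fold difference, against 12.7% of all tested genes. Leaving out 1 library at a time, 25 of the 36 higher calls and 2 of the 6 lower calls were kept in all 6 such fits.

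The gene that reached 1.5-fold was MRPL12 (chr17:81703370-81707526 on hg38), a protein of the ribosomal stalk that also binds the mitochondrial RNA polymerase. It measured 293 and 298 TPM in PC9-AMG, 254 and 289 TPM in PC9-BrM4, and 185 and 174 TPM in PC9. The libraries of PC9-BrM4 and of PC9-AMG all lay above both of PC9. The log2 fold change of PC9-BrM4 over PC9 was 0.60 (SE 0.06, limma adjusted p = 0.000303).

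Among other large-subunit proteins of bacterial families, MRPL34 (chr19:17305668-17306843) gave 55.1 and 55.85 TPM in PC9-AMG, 74.9 and 80.7 TPM in PC9-BrM4, and 56.6 and 49.2 TPM in PC9. PC9-BrM4 stood above the other two lines, which overlapped. Its log2 fold change over PC9 was 0.55 (SE 0.07, limma adjusted p = 0.000775). MRPL32, a protein matured by a protease of the inner membrane, gave 141 and 146 TPM in PC9-AMG, 177 and 166 TPM in PC9-BrM4, and 115 and 128 TPM in PC9. The 3 lines did not overlap for MRPL32, with PC9-BrM4 highest and PC9 lowest (log2 0.50 for PC9-BrM4 over PC9, SE 0.06, limma adjusted p = 0.00052).

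Small-subunit genes moved in the same comparison. MRPS5, near the channel through which mRNA enters, gave 99.85 and 105 TPM in PC9-AMG, 119.9 and 119 TPM in PC9-BrM4, and 83.4 and 89.2 TPM in PC9, and again no libraries of different lines overlapped. The log2 fold change of PC9-BrM4 over PC9 was 0.46 for MRPS5, 0.42 for MRPS26 and 0.40 for MRPS6. The large-subunit genes MRPL38 and MRPS30 had log2 fold changes of 0.40 and 0.39 in the same direction. MRPS5, MRPS6 and MRPL32 have named pseudogenes, and MRPS6 also shares its strand and span with SLC5A3, so reads of these genes may be divided with other loci.

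The 6 genes that were lower in PC9-BrM4 were MRPL42, MRPS33, MRPL30, MRPS31, MRPS21 and MRPL51. MRPL42 (chr12:93467490-93503772), a mitochondria-specific large-subunit protein, gave 36.5 and 33.7 TPM in PC9-AMG, 33.6 and 33.5 TPM in PC9-BrM4, and 44.85 and 44.9 TPM in PC9. Both sublines lay below PC9 in every library, with a log2 fold change of -0.41 in PC9-BrM4 (SE 0.06, limma adjusted p = 0.000972). MRPS33, a mitochondria-specific small-subunit protein, gave 132 and 128 TPM in PC9-AMG, 145 and 139 TPM in PC9-BrM4, and 176 and 173 TPM in PC9 (log2 -0.30 in PC9-BrM4 over PC9, limma adjusted p = 0.00118).

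The other four lower genes had log2 fold changes of -0.25 (MRPL30), -0.23 (MRPS31), -0.20 (MRPS21) and -0.17 (MRPL51). Their calls were lost when PC9 replicate 1 was left out. Those of MRPS31, MRPS21 and MRPL51 were also lost without PC9-BrM4 replicate 2, those of MRPS21 and MRPL51 without PC9 replicate 2, and that of MRPS31 without either PC9-AMG library. Reads of 36 of the 77 genes could be divided with another locus: 34 have a named pseudogene, 3 share a strand and span with another model listed above 0 TPM (in 2 of them at 1 TPM or more in some library), and MRPL23 stands on several lines of the tables. All 6 lower genes are among these 36, which also hold 12 of the higher calls. Among the remaining 41 genes, 24 were called higher and 0 lower in PC9-BrM4, against 23.4% and 23.1% of all tested genes. This split was chosen after seeing the data, and the part of read assignment in the calls was not tested.

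**Figure D2:**
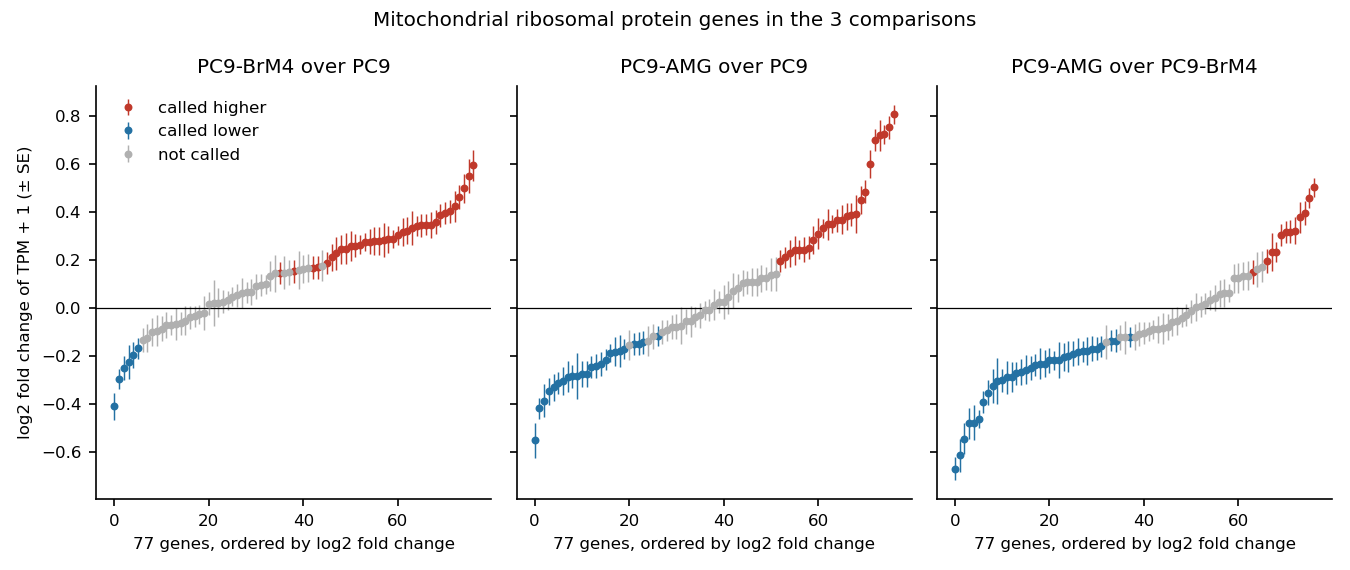
Log2 fold change of TPM + 1 for the 77 mitochondrial ribosomal protein genes, ordered within each panel, with bars of 1 standard error from limma and colours for the call at an adjusted p of 0.05. PC9-BrM4 over PC9 (left) holds 36 higher and 6 lower calls, PC9-AMG over PC9 (middle) 25 and 24, and PC9-AMG over PC9-BrM4 (right) 12 and 35.

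PC9-AMG differed from PC9 in both directions about equally. Of the 77 genes, 25 were called higher (32.5%) and 24 lower (31.2%), and 28 did not pass, against 27.8% higher, 27.7% lower and 55.5% in either direction over all tested genes. The median log2 fold change was 0.01, against -0.0058 over all tested genes. Its sign changed when PC9 replicate 2 (-0.0082) or PC9-AMG replicate 2 (-0.0207) was left out, so no direction is read from it. Libraries did not overlap for 68 of the 77 (88.3%), against 79.8% of all tested genes. A 1.5-fold difference was reached by 6 of the 77 (7.79%), all higher in PC9-AMG, against 16.9% of all tested genes. In the 6 fits without 1 library, 22 of the 25 higher and 16 of the 24 lower calls were kept throughout.

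The 6 genes past 1.5-fold were MRPS15, MRPL41, MRPS12, MRPL12, MRPL38 and MRPL55. MRPS15 (chr1:36455761-36464439) had the largest rise, with the TPM values given above and a log2 fold change of 0.81 over PC9 (SE 0.04, limma adjusted p = 9.26e-06). Its libraries ordered PC9-AMG above PC9-BrM4 above PC9 without overlap.

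MRPL41 (chr9:137551857-137552555), a mitochondria-specific large-subunit protein, gave 173.7 and 173 TPM in PC9-AMG, 127 and 136 TPM in PC9-BrM4, and 100.4 and 105 TPM in PC9. The same order of lines held without overlap, and the log2 fold change of PC9-AMG over PC9 was 0.75 (SE 0.05, limma adjusted p = 3.15e-05). MRPS12 (chr19:38930708-38933019), a protein of the decoding centre, gave 212 and 217 TPM in PC9-AMG, 157 and 155 TPM in PC9-BrM4, and 128 and 131 TPM in PC9. It too ordered PC9-AMG, PC9-BrM4, PC9 without overlap (log2 0.72 for PC9-AMG over PC9, SE 0.04, limma adjusted p = 1.59e-05). MRPS12 overlaps SARS2 on the other strand by 189 bases, and the sources used here do not say whether the authors counted by strand.

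MRPL12, whose values are given above, had a log2 fold change of 0.72 in PC9-AMG over PC9 (SE 0.06, limma adjusted p = 0.000101). MRPL38 (chr17:75898643-75905100), a mitochondria-specific protein of the central protuberance of the large subunit, gave 146 and 154 TPM in PC9-AMG, 120.2 and 122 TPM in PC9-BrM4, and 91.97 and 91.93 TPM in PC9. The lines did not overlap, and the log2 fold change of PC9-AMG over PC9 was 0.70 (SE 0.04, limma adjusted p = 2.71e-05). MRPL55 (chr1:228106679-228109312) gave 116 and 119.9 TPM in PC9-AMG, 89.9 and 98.3 TPM in PC9-BrM4, and 75.5 and 79.2 TPM in PC9 (log2 0.60 for PC9-AMG over PC9, limma adjusted p = 0.00013). Below the 1.5-fold mark, the small-subunit genes MRPS7 and MRPS23 had log2 fold changes of 0.49 and 0.45 over PC9. MRPS7 overlaps GGA3 and MIF4GD on the other strand.

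**Figure D3:**
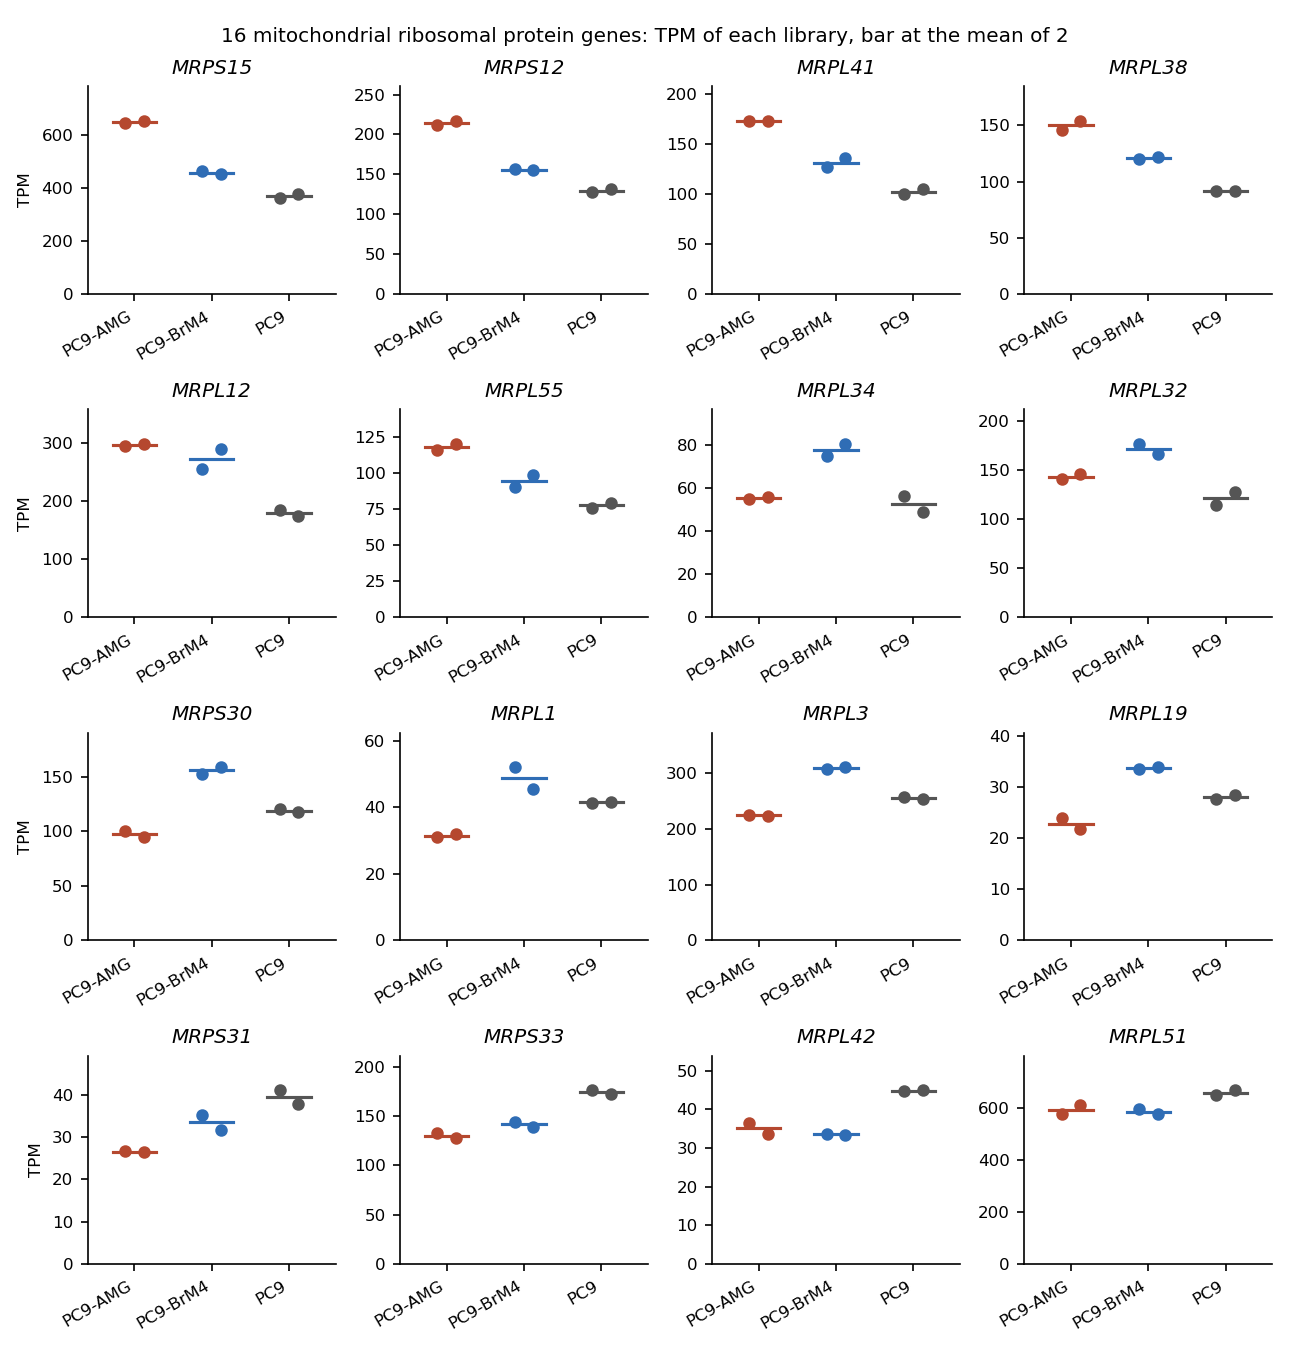
TPM of each of the 6 libraries for 16 mitochondrial ribosomal protein genes, in the order PC9-AMG, PC9-BrM4, PC9, with a bar at the mean of the 2 libraries and each axis starting at 0. MRPS15, MRPS12, MRPL41, MRPL38 and MRPL55 step down from PC9-AMG through PC9-BrM4 to PC9, whereas MRPS30, MRPL1, MRPL3 and MRPL19 are highest in PC9-BrM4 and lowest in PC9-AMG.

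The largest falls in PC9-AMG relative to PC9 were smaller. MRPS31 (chr13:40729296-40771211), a mitochondria-specific small-subunit protein, gave 26.6 and 26.4 TPM in PC9-AMG, 35.3 and 31.8 TPM in PC9-BrM4, and 41.05 and 37.7 TPM in PC9. The lines did not overlap, and the log2 fold change of PC9-AMG over PC9 was -0.55 (SE 0.07, limma adjusted p = 0.000524). MRPS33 followed at -0.42, MRPL1 at -0.39, MRPL42 at -0.35, MRPL45 at -0.33, MRPS28 and MRPL40 at -0.31 and MRPL19 at -0.29. MRPL1 forms the stalk next to the tRNA exit site, and MRPL45 lies at the mouth of the tunnel from which the new protein leaves. MRPS31, MRPS33, MRPL42, MRPL45 and MRPL40 have named pseudogenes. The call of MRPL51, at -0.15, was lost without either PC9 library or PC9-AMG replicate 1.

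Both comparisons above use the same PC9 libraries, so they are not independent of each other. In 6 genes the calls ran higher in PC9-BrM4 and lower in PC9-AMG, and these are described next with the direct comparison.

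Compared directly, PC9-AMG had lower levels than PC9-BrM4 for many of the genes. Of the 77, 12 were called higher in PC9-AMG (15.6%) and 35 lower (45.5%), and 30 did not pass, against 28.1% higher, 28% lower and 56.1% in either direction over all tested genes. The median log2 fold change was -0.12, against -0.0059 over all tested genes. Libraries did not overlap for 66 of the 77 (85.7%), against 77.5% of all tested genes. A 1.5-fold difference was reached by 2 of the 77 (2.6%), both lower in PC9-AMG, against 18.5% of all tested genes. The count of lower calls fell to 21 without PC9-AMG replicate 1 and to 22 without PC9-BrM4 replicate 1, and 18 of the 35 were kept in all 6 fits without 1 library.

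The 2 genes past 1.5-fold were MRPS30 and MRPL1. MRPS30 (chr5:44808925-44815516), a mitochondria-specific protein of the large subunit despite its name, gave 100.7 and 94.5 TPM in PC9-AMG, 153 and 159 TPM in PC9-BrM4, and 120.2 and 118 TPM in PC9. PC9-BrM4 was highest and PC9-AMG lowest, with no overlap. The log2 fold change of PC9-AMG over PC9-BrM4 was -0.67 (SE 0.05, limma adjusted p = 2.82e-05). The other tested genes within its 10 Mb window (chromosome 5, 40 to 50 Mb) had a median of -0.54 in the same comparison, with 22 of 25 lower, which left -0.13 for MRPS30 once subtracted. MRPL1 (chr4:77862651-77952790) gave 31.1 and 31.96 TPM in PC9-AMG, 52.1 and 45.7 TPM in PC9-BrM4, and 41.5 and 41.6 TPM in PC9, in the same order of lines (log2 -0.61 for PC9-AMG over PC9-BrM4, SE 0.07, limma adjusted p = 0.000236).

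MRPL3 and MRPL19, large-subunit genes of bacterial families, followed that order. MRPL3 (chr3:131462201-131503016), whose protein lies near the peptide-bond-forming centre, gave 224 and 222 TPM in PC9-AMG, 307 and 309.8 TPM in PC9-BrM4, and 257 and 253 TPM in PC9, with no overlap. Its log2 fold change in PC9-AMG over PC9-BrM4 was -0.46 (SE 0.04, limma adjusted p = 4.56e-05). MRPL19, with the values given above, had -0.55 (SE 0.06, limma adjusted p = 0.00029). MRPL24 gave 111 and 114 TPM in PC9-AMG, 149 and 147 TPM in PC9-BrM4, and 129 and 138 TPM in PC9, with -0.39, and MRPL52 had -0.30.

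The direct calls of these 6 genes were kept in all 6 fits without 1 library. That is no separate support, because a direct difference between opposite changes exceeds either change from PC9 by construction. Against PC9, the calls in both directions were kept in all 6 fits for MRPS30 and MRPL3. For MRPL1, MRPL19, MRPL24 and MRPL52 the higher call in PC9-BrM4 was lost in 3 or 4 of the 6 fits, and for MRPL52 the lower call in PC9-AMG was also lost in 4. MRPL3 has a named pseudogene and a snoRNA model, SNORA58, within its span.

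Other falls in PC9-AMG relative to PC9-BrM4 were -0.48 for MRPS26, -0.48 for MRPL34 and -0.35 for MRPS9, and -0.16, -0.31 and -0.18 with the window median subtracted. MRPS26 gave 99.4 and 94.6 TPM in PC9-AMG, 129 and 143 TPM in PC9-BrM4, and 97.2 and 105 TPM in PC9. For MRPS26 and MRPL34, PC9-AMG overlapped PC9 and PC9-BrM4 stood above both.

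The rises in PC9-AMG over PC9-BrM4 were led by MRPS15 (log2 0.50, limma adjusted p = 4.22e-05), MRPS12 (0.46, limma adjusted p = 6.99e-05) and MRPL41 (0.40, limma adjusted p = 0.000406). MRPL27, MRPL55, MRPS7, MRPL33 and MRPL38 followed at 0.38, 0.32, 0.32, 0.32 and 0.31. With the median of the other genes in the 10 Mb window subtracted, MRPS15 kept 0.23, MRPS12 0.18, MRPL41 0.23, MRPL27 0.07, MRPL55 0.16 and MRPL33 0.24, whereas MRPS7 turned to -0.08 and MRPL38 to -0.09. MRPL27, whose protein reaches toward the site of peptide bond formation, gave 139 and 144 TPM in PC9-AMG, 115 and 102 TPM in PC9-BrM4, and 111 and 117 TPM in PC9. MRPL33 gave 298 and 291 TPM in PC9-AMG, 236 and 236.3 TPM in PC9-BrM4, and 238 and 256 TPM in PC9. In both genes PC9-AMG stood above the other two lines.

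Summed over all 77 genes, TPM came to 10010 ± 125.8 in PC9-AMG, 10210 ± 75.0 in PC9-BrM4 and 9132 ± 102 in PC9 (SD, n = 2 each). The 50 large-subunit genes summed to 6247 ± 114 TPM in PC9-AMG, 6460 ± 63.9 TPM in PC9-BrM4 and 5833 ± 52.4 TPM in PC9 (SD, n = 2 each). The 26 small-subunit genes summed to 3720 ± 10.7 TPM in PC9-AMG, 3714 ± 9.01 TPM in PC9-BrM4 and 3257 ± 47.8 TPM in PC9 (SD, n = 2 each). Each sum was therefore higher in both sublines than in PC9, with a ratio of 1.07 (large) and 1.14 (small) in PC9-AMG and of 1.11 (large) and 1.14 (small) in PC9-BrM4. Such sums weigh abundant genes most and in PC9-AMG do not describe a general rise. There the median log2 fold change over PC9 was 0.0031 (large) and 0.0068 (small). MRPS15 alone, in the small-subunit sum, had a mean of 651 TPM in PC9-AMG and 371 TPM in PC9.

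The ratio of large-subunit to small-subunit TPM was 1.66 and 1.70 in the PC9-AMG libraries, 1.75 and 1.73 in those of PC9-BrM4, and 1.80 and 1.78 in those of PC9. The 3 lines did not overlap in this ratio, with PC9-AMG lowest and PC9 highest, but that order rested on MRPS15. Without MRPS15, a choice made after seeing the data, the ratio was 2.01 and 2.06 in the PC9-AMG libraries, 2.00 and 1.97 in those of PC9-BrM4, and 2.03 and 2.02 in those of PC9, so that PC9-AMG overlapped PC9. No p is given for a ratio over these genes. MRPS15, the most abundant small-subunit gene, stood at 651 ± 6.61 TPM in PC9-AMG, 459 ± 6.76 TPM in PC9-BrM4 and 371 ± 11.1 TPM in PC9 (SD, n = 2 each).

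**Figure D4:**
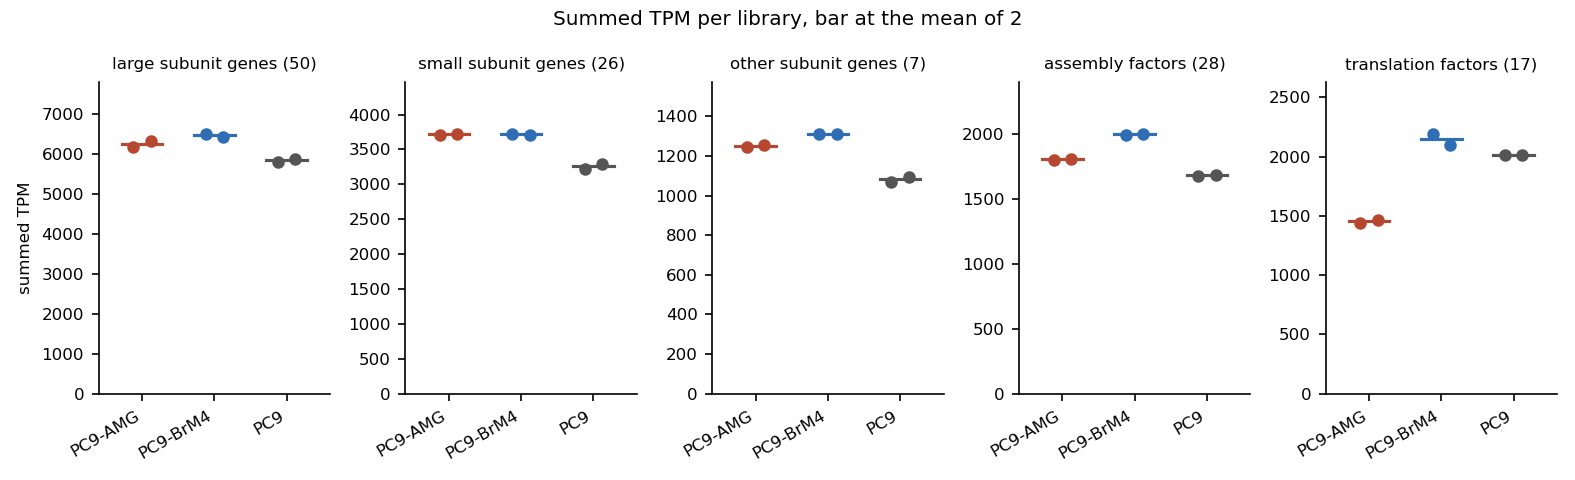
Summed TPM per library for 50 large-subunit genes, 26 small-subunit genes, 7 genes listed as other subunits (NDUFAB1 included), 28 assembly factors and 17 translation factors. The order is PC9-AMG, PC9-BrM4, PC9, with a bar at the mean of 2 libraries and axes from 0. Both subunit sums are lowest in PC9, and the translation factor sum, of which SLIRP supplies most of the difference, is lowest in PC9-AMG.

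Called counts were spread over both subunits. In PC9-BrM4 relative to PC9, 22 of 50 large-subunit genes were higher and 3 lower (44% and 6%, median 0.15). For the 26 small-subunit genes, 14 were higher and 3 lower (53.8% and 11.5%, median 0.18). The shares of all tested genes were 23.4% and 23.1%. In PC9-AMG relative to PC9, 16 large-subunit genes were higher and 16 lower (32% each). For the small subunit, 9 were higher and 8 lower (34.6% and 30.8%). These shares were near the 27.8% and 27.7% of all tested genes. In PC9-AMG relative to PC9-BrM4, 9 large-subunit genes were higher and 22 lower (18% and 44%). For the small subunit, 3 were higher and 13 lower (11.5% and 50%). The shares of all tested genes were 28.1% and 28%.

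By family, 25 of 47 genes of bacterial families were higher and 2 lower in PC9-BrM4 than in PC9, against 11 higher and 4 lower of 30 mitochondria-specific genes. The shares of all tested genes were 23.4% higher and 23.1% lower. In PC9-AMG relative to PC9 the bacterial families had 18 higher and 12 lower (38.3% and 25.5%). The mitochondria-specific genes had 7 higher and 12 lower (23.3% and 40%), against 27.8% and 27.7% of all tested genes. Summed TPM of the bacterial families was 6432 ± 101 in PC9-AMG, 6491 ± 80.8 in PC9-BrM4 and 5640 ± 82.1 in PC9 (SD, n = 2 each). The mitochondria-specific genes summed to 3579 ± 24.5 in PC9-AMG, 3723 ± 5.78 in PC9-BrM4 and 3492 ± 19.6 in PC9 (SD, n = 2 each). The difference between the families was not tested.

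The 3 MRPS18 genes, which descend from a common ancestor and whose proteins occupy different places in the ribosome, did not move together. MRPS18A, in the large subunit, gave 85.5 and 89.6 TPM in PC9-AMG, 77.9 and 74.7 TPM in PC9-BrM4, and 67.9 and 67.5 TPM in PC9, without overlap, and was called higher in PC9-AMG than in PC9 (log2 0.37, limma adjusted p = 0.000583). Its call in PC9-BrM4 over PC9 (0.17) was lost without either PC9 library or PC9-BrM4 replicate 1. MRPS18B gave 193 and 191 TPM in PC9-AMG, 215 and 207 TPM in PC9-BrM4, and 170.3 and 182 TPM in PC9, and was called higher in PC9-BrM4 than in PC9 (log2 0.26, limma adjusted p = 0.00351). MRPS18C gave 47.9 and 49.7 TPM in PC9-AMG, 48.4 and 46.4 TPM in PC9-BrM4, and 50.85 and 48.9 TPM in PC9, and passed in no comparison, with log2 fold changes between -0.07 and 0.04. All 3 have named pseudogenes.

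MRPL36, among the smallest proteins of the large subunit, gave 216 and 220.3 TPM in PC9-AMG, 261 and 253 TPM in PC9-BrM4, and 196 and 209 TPM in PC9. PC9-BrM4 lay above the other two lines, with a log2 fold change of 0.34 over PC9 (limma adjusted p = 0.000885). MRPS22, a mitochondria-specific small-subunit protein, gave 121 and 121.3 TPM in PC9-AMG, 137 and 136 TPM in PC9-BrM4, and 129 and 139 TPM in PC9. Its lower call in PC9-AMG than in PC9 (-0.14) was lost in 3 of the 6 fits without 1 library. MRPS36, the dehydrogenase component, gave 43.7 and 45.2 TPM in PC9-AMG, 41.9 and 38.95 TPM in PC9-BrM4, and 40.85 and 43.04 TPM in PC9, and passed in no comparison.

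Several of the genes moved together with the genes around them on the chromosome. For each of the 77, the median log2 fold change of the other tested genes in the same 10 Mb window (hg38) was taken beside it. In PC9-AMG relative to PC9, 7 of the 77 lay in a window whose median exceeded 0.3 in size, against 1 in PC9-BrM4 relative to PC9 and 8 in PC9-AMG relative to PC9-BrM4. The share of all tested genes in such windows was not determined, so these counts cannot set the 77 apart from other genes. The window of MRPL38 and MRPS7 on chromosome 17, from 70 to 80 Mb, had a median of 0.45 in PC9-AMG over PC9, with 92 of 102 other genes higher. That of MRPL12, from 80 to 90 Mb on the same chromosome, had 0.45 with 61 of 67 higher, and that of MRPS15, on chromosome 1 from 30 to 40 Mb, had 0.32 with 77 of 104 higher. With the window median subtracted, the log2 values of PC9-AMG over PC9 were 0.25 for MRPL38, 0.03 for MRPS7, 0.27 for MRPL12 and 0.49 for MRPS15. The windows of MRPL41, MRPS12 and MRPL55 had medians of 0.22, 0.25 and 0.16, and these genes kept 0.53, 0.47 and 0.44 with those subtracted.

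Among the genes called lower, MRPS30 lay in a window on chromosome 5 (40 to 50 Mb) with a median of -0.58 in PC9-AMG over PC9 and 23 of 25 other genes lower. Its own value was -0.28, and 0.29 with the window median subtracted, so that its direction against PC9 was the opposite of that given above once its neighbours were taken off. MRPS31 lay in a window on chromosome 13 (40 to 50 Mb) with a median of -0.42 in PC9-AMG and -0.33 in PC9-BrM4, both over PC9. Its value with that median subtracted was -0.13 in PC9-AMG and 0.10 in PC9-BrM4. In PC9-BrM4 over PC9, MRPL42 kept -0.18 and MRPS33 -0.15 with their window medians of -0.23 and -0.14 subtracted. MRPL57, elsewhere on chromosome 13 (20 to 30 Mb), had 0.39 in PC9-AMG over PC9 in a window with a median of -0.43. It overlaps SKA3 on the other strand.

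Most calls kept their direction beside their neighbours. With the window median subtracted, the sign was lost for 2 of the 42 called genes in PC9-BrM4 over PC9, 2 of the 49 in PC9-AMG over PC9 and 6 of the 47 in PC9-AMG over PC9-BrM4. The last 6 were MRPL28, MRPL36, MRPL38, MRPL40, MRPS34 and MRPS7. MRPL1 and MRPL19 lay in windows with medians of 0.03 and -0.01 in PC9-AMG over PC9, far from their own values. The part of chromosomal position in these results was not tested.

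**Figure D5:**
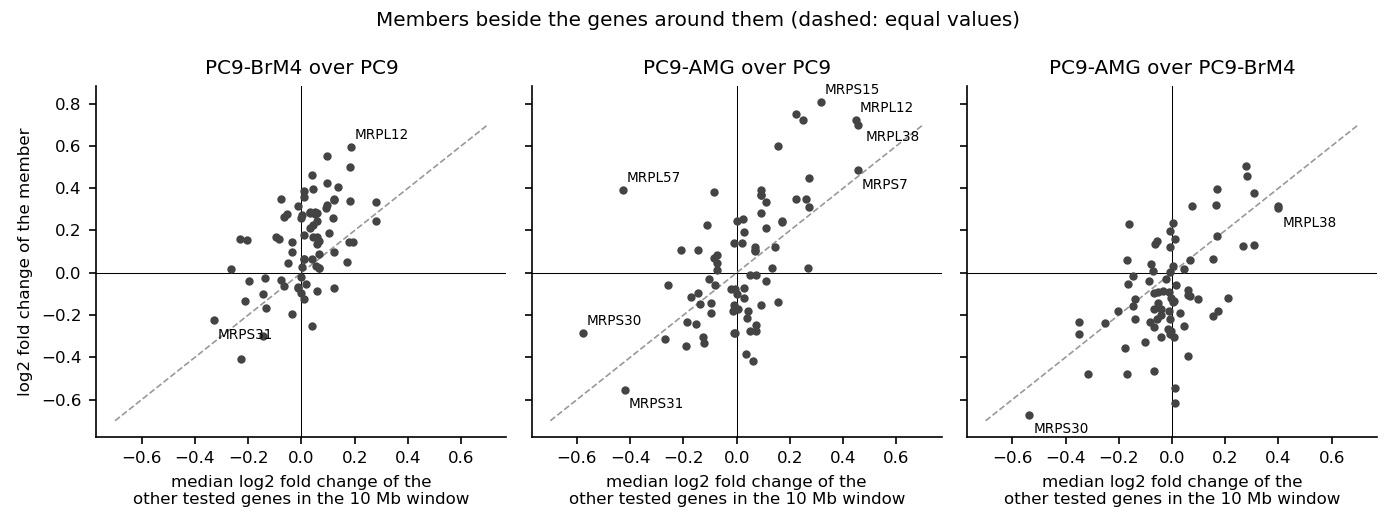
Log2 fold change of each of the 77 mitochondrial ribosomal protein genes (vertical) against the median log2 fold change of the other tested genes in its 10 Mb window (horizontal), in the 3 comparisons, with a dashed line at equal values. In PC9-AMG over PC9, MRPL38, MRPL12 and MRPS7 lie in windows with medians near 0.45 and MRPS30 in one at -0.58.

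Other subunits of the mitochondrial ribosome carry unrelated names. Of 7 genes listed under this heading, 5 were called higher and 0 lower in PC9-BrM4 than in PC9 (23.4% and 23.1% of all tested genes). In PC9-AMG relative to PC9, 5 were higher and 1 lower (27.8% and 27.7% of all tested genes). The 7 include NDUFAB1, an acyl carrier protein that is not a subunit of the finished ribosome. NDUFAB1 was among the higher calls in both comparisons (log2 0.16 in PC9-BrM4 and 0.26 in PC9-AMG over PC9). AURKAIP1, a small-subunit protein, gave 233 and 232 TPM in PC9-AMG, 280.1 and 312 TPM in PC9-BrM4, and 193 and 208 TPM in PC9, with no overlap and PC9-BrM4 highest (log2 0.56 over PC9, limma adjusted p = 0.000331). ICT1, the large-subunit protein now named MRPL58 and able to release stalled chains, gave 146 and 142 TPM in PC9-AMG, 129.6 and 137 TPM in PC9-BrM4, and 106 and 108 TPM in PC9 (log2 0.43 in PC9-AMG over PC9, limma adjusted p = 0.000209).

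Of 28 assembly factors of the mitochondrial ribosome, 12 were called higher (42.9%) and 3 lower (10.7%) in PC9-BrM4 than in PC9. The shares of all tested genes were 23.4% and 23.1%. In PC9-AMG, 11 were higher (39.3%) and 6 lower (21.4%) than in PC9, against 27.8% and 27.7% of all tested genes. Relative to PC9-BrM4, 6 were higher (21.4%) and 8 lower (28.6%) in PC9-AMG, against 28.1% and 28% of all tested genes. C1QBP, an abundant matrix protein, gave 527 and 526 TPM in PC9-AMG, 760.5 and 749 TPM in PC9-BrM4, and 548 and 547 TPM in PC9. PC9-BrM4 stood above both other lines (log2 0.46 over PC9, limma adjusted p = 6.96e-05). The 3 lower calls in PC9-BrM4 over PC9 were TRUB2 (log2 -0.31), METTL17 (-0.25) and NOA1 (-0.20). GTPBP6, a GTPase that acts late in assembly and in ribosome recycling, was higher in both sublines than in PC9 (log2 0.52 in PC9-AMG and 0.56 in PC9-BrM4). NSUN4, an rRNA methyltransferase, was higher in PC9-AMG than in PC9 (log2 0.62, limma adjusted p = 0.000236), and MTERF4, its partner, was lower (-0.39, limma adjusted p = 0.00392).

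Of 17 factors of mitochondrial translation, 6 were called higher (35.3%) and 4 lower (23.5%) in PC9-BrM4 than in PC9. The shares of all tested genes were 23.4% and 23.1%. In PC9-AMG, 2 were higher (11.8%) and 9 lower (52.9%) than in PC9, against 27.8% and 27.7% of all tested genes. Relative to PC9-BrM4, 4 were higher (23.5%) and 8 lower (47.1%) in PC9-AMG, against 28.1% and 28% of all tested genes. SLIRP, which with LRPPRC stabilises mitochondrial mRNAs, had the largest difference among the 17 factors. It gave 337 and 365 TPM in PC9-AMG, 907 and 795 TPM in PC9-BrM4, and 832 and 831 TPM in PC9, so that PC9-AMG lay below the other two lines, which overlapped. The log2 fold change of PC9-AMG was -1.24 over PC9 (SE 0.07, limma adjusted p = 1.43e-05) and -1.27 over PC9-BrM4. The sum of the 17 factors was 1456 ± 16.2 TPM in PC9-AMG, 2146 ± 69.6 TPM in PC9-BrM4 and 2015 ± 1.15 TPM in PC9 (SD, n = 2 each). SLIRP supplied most of that difference: without it, a choice made after seeing the data, the sum was 1105 ± 3.89 TPM in PC9-AMG, 1295 ± 9.55 TPM in PC9-BrM4 and 1183 ± 0.64 TPM in PC9 (SD, n = 2 each).

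MTIF2, the initiation factor that brings the first tRNA to the ribosome, followed the order of MRPL1 and MRPL3, with 72.5 and 71.8 TPM in PC9-AMG, 115 and 112 TPM in PC9-BrM4, and 88.6 and 85.3 TPM in PC9 (log2 -0.64 for PC9-AMG over PC9-BrM4, limma adjusted p = 2.42e-05). TSFM, the exchange factor of the elongation factor TUFM, was lower in PC9-BrM4 than in PC9 (log2 -0.59, limma adjusted p = 0.000148). PDF had the largest rise of the list in PC9-BrM4 over PC9 (log2 0.87, limma adjusted p = 0.00357). Its levels were 36.05 and 41.3 TPM in PC9-BrM4 and 16.9 and 25.2 TPM in PC9. MTRF1L was higher in PC9-AMG than in PC9 (log2 0.37, limma adjusted p = 0.016). MTRF1, a release factor, was lower in both sublines, at -0.72 in PC9-AMG and -0.59 in PC9-BrM4 over PC9. TACO1, an activator of translation of a respiratory chain subunit, was higher in both, at 0.49 in PC9-AMG and 0.25 in PC9-BrM4 over PC9.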

How the data were processed

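Each library has a table of gene abundances deposited by the authors, with TPM, FPKM and coverage per the file headers. HISAT2 2.1.0, StringTie 1.3.4d, bcl2fastq and the build hg38 are named in the submitters' processing notes without their roles. The deposited coverage and FPKM values served to estimate aligned bases, and FPKM as an alternative. The sources used here give neither the annotation release nor the strand option; 13 members overlap another model with a value on the other strand, 9 of them a model that reached 1 TPM. The tables of PC9-AMG carry EMG in their names and were assigned by the sample records; 6 columns of a series table that match no label were not used.

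Lines of 1 symbol were summed. Genes with TPM of at least 1 in 2 or more libraries were tested on log2(TPM + 1), a scale that understates changes of low genes, with limma 3.58.1 in R 4.3.3 (trend, 6 libraries, 1 mean per line, 3 residual degrees of freedom, Benjamini-Hochberg over all tested genes). The fit was tested on simulated data. Summaries used Python 3.11.15. Genes named are the 8 largest called rises and falls per comparison with a mean of at least 10 TPM and no overlap, the 3 highest and 3 lowest levels, fixed members, and leading genes of the lists. The members, lists and rules were chosen with earlier results of these data known. Read counts are unknown, so no counting intervals are given. Alternatives covered pseudocount, filter, trend, samples fitted, scaling, unit, lines per symbol, replicate block, single libraries, chromosomal window and, chosen after seeing the data, removal of members with uncertain read assignment.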

Additional observations from a re-analysis of the deposited data

Results flagged for a closer look

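In 6 genes the 2 sublines were called in opposite directions from PC9, higher in PC9-BrM4 and lower in PC9-AMG. The difference between the sublines also passed limma's test. That difference combines the 2 opposite changes with the same SE, so it exceeds either by construction and is no separate support. The log2 fold change of PC9-AMG over PC9-BrM4 was -0.67 for MRPS30 (limma adjusted p = 2.82e-05), -0.61 for MRPL1 (limma adjusted p = 0.000236), -0.55 for MRPL19 (limma adjusted p = 0.00029), -0.46 for MRPL3 (limma adjusted p = 4.56e-05), -0.39 for MRPL24 (limma adjusted p = 0.000299) and -0.30 for MRPL52 (limma adjusted p = 0.00122). Against PC9, MRPS30 had -0.28 in PC9-AMG and 0.39 in PC9-BrM4, MRPL1 -0.39 and 0.23, MRPL19 -0.29 and 0.26, MRPL3 -0.19 and 0.27, MRPL24 -0.25 and 0.15, and MRPL52 -0.15 and 0.15, in the same order of lines. Of all 14195 tested genes, 3.63% had these 3 calls, against 6 of the 77 (7.79%), and no test of that share was made. With the regional median removed, MRPS30 turned to 0.29 in PC9-AMG over PC9 and kept -0.13 in PC9-AMG over PC9-BrM4. Leaving out 1 library at a time, the higher call in PC9-BrM4 was lost in 3 or 4 of 6 fits for MRPL1, MRPL19, MRPL24 and MRPL52, and the lower call of MRPL52 in PC9-AMG in 4.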

How the results depend on the processing

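The comparisons are (a) PC9-BrM4 over PC9, (b) PC9-AMG over PC9 and (c) PC9-AMG over PC9-BrM4. Without the mean-variance trend, 3 genes were lower in PC9-BrM4 than in PC9. Leaving out each library in turn gave 2 to 7 lower genes and a median of 0.1344 to 0.1732 in (a), a median of -0.0207 to 0.0302 in (b) and 21 to 30 lower genes in (c). In such fits the lone library of a line is assumed to vary like the other lines. Quantile normalization gave medians of 0.0983 and -0.0187 in (a) and (b), and FPKM gave 0.1234 in (a). With the regional median removed the medians were 0.1251 in (a), 0.0374 in (b) and -0.0911 in (c). Without the members of uncertain read assignment, an alternative chosen after seeing the data, 0 genes were lower in (a), 14 were higher and 12 lower in (b), and 7 higher and 21 lower in (c), of the 41 genes that remained, and the medians were 0.2275 in (a) and -0.1434 in (c). With the regional median removed, values turned to 0.1042 for MRPS31 in PC9-BrM4 over PC9, 0.2928 for MRPS30 in PC9-AMG over PC9, and 0.0154 for MRPL36, -0.0941 for MRPL38 and -0.0814 for MRPS7 in PC9-AMG over PC9-BrM4. The cause of the other changes was not tested.

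Deviations of same-numbered libraries correlated at -0.063, -0.069 and -0.028 between pairs of lines, so the numbers were not taken to pair samples; with the replicate block, 37 genes were higher and 6 lower in (a), 25 and 23 in (b), and 11 and 33 in (c). Of 1360 values of named members under 17 alternatives, 69 lost the call, 1 gained it and 5 turned the sign of a called result. The other 1285 were counted as unchanged. For results not called in the main fit a change of sign was not counted. Values with the regional median removed carry no p, so only their sign was compared. Having 2 libraries a line and unknown read counts limit the precision.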

Other observations

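Regulators of nuclear genes for mitochondria were measured beside the ribosomal protein genes. Of 8 tested, 4 were called higher and 1 lower in PC9-BrM4 than in PC9, against 23.4% and 23.1% of all tested genes. In PC9-AMG relative to PC9, 4 were higher and 1 lower, against 27.8% and 27.7% of all tested genes. The lower call in PC9-BrM4 was GABPB1 (log2 -0.22, limma adjusted p = 0.0137). ESRRA, a nuclear receptor, gave 77.3 and 73.4 TPM in PC9-AMG, 79.7 and 91.8 TPM in PC9-BrM4, and 55.2 and 50.02 TPM in PC9, so both sublines lay above PC9 (log2 0.51 in PC9-AMG and 0.69 in PC9-BrM4). MYC gave 119 and 113.5 TPM in PC9-AMG, 101 and 105 TPM in PC9-BrM4, and 76.1 and 83.4 TPM in PC9, without overlap (log2 0.54 in PC9-AMG and 0.37 in PC9-BrM4 over PC9). The coactivator PPRC1 rose by 0.38 in PC9-AMG and 0.50 in PC9-BrM4, and PPARGC1B by 0.76 in PC9-AMG and 0.95 in PC9-BrM4, all on the log2 scale over PC9. PPARGC1B was low, with 2.41 and 2.09 TPM in PC9-AMG, 2.62 and 2.81 TPM in PC9-BrM4, and 0.98 and 0.867 TPM in PC9. PPARGC1A was at 0 in 5 of the 6 libraries. GABPA, which binds the ETS core, was called lower in PC9-AMG than in PC9 (log2 -0.33, limma adjusted p = 0.00467), and YY1 passed in no comparison.

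Of 9 factors of mitochondrial transcription and replication, 2 were called higher (22.2%) and 2 lower (22.2%) in PC9-BrM4 than in PC9. These shares were near the 23.4% and 23.1% of all tested genes. In PC9-AMG, 2 were higher (22.2%) and 1 lower (11.1%) than in PC9, against 27.8% and 27.7% of all tested genes. POLRMT, the mitochondrial RNA polymerase, gave 33.8 and 33.4 TPM in PC9-AMG, 26.9 and 32.6 TPM in PC9-BrM4, and 20.1 and 19.3 TPM in PC9 (log2 0.74 in PC9-AMG and 0.57 in PC9-BrM4 over PC9). MTERF1 was lower in PC9-BrM4 than in PC9 (log2 -0.51, limma adjusted p = 0.00106). SSBP1, the most abundant gene of this list, was called lower than in PC9 in both sublines. Its log2 fold change was -0.18 in PC9-AMG (limma adjusted p = 0.00865) and -0.31 in PC9-BrM4 (limma adjusted p = 0.000958).

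MRPL23 stood on 2 lines of each table, on chromosome 11 and on an unlocalized contig of that chromosome, and both held values. The chromosome 11 line gave 41.5 and 33.1 TPM in PC9-AMG, 41.5 and 45.3 TPM in PC9-BrM4, and 44.96 and 46.4 TPM in PC9. The contig line gave 24.2 and 26.3 TPM in PC9-AMG, 31.8 and 36.5 TPM in PC9-BrM4, and 24.8 and 37.1 TPM in PC9.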
